A study of Mus musculus with 9 samples.

Results

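H2-Q7 and H2-M2 are class Ib histocompatibility genes, and each was read by 1 probe printed as 10 spots per array. They are 2 of the 49 genes with a named probe and 2 of 60823 probes outside the control features. Both genes were chosen by their processed intensities in all 9 arrays, with the group differences already known. Their levels and differences are therefore given as a description, with no test. The arrays hold aortic RNA of male C57BL/6J mice, 1 mouse per array and 3 mice per group. The vehicle mice carry the label vehicle, with no diet named. The DIO mice (diet-induced obesity) ate a high-fat diet for 4 months and received no sitagliptin. The DIO+sitagliptin mice were fed the high-fat diet, with no length given on their label, and received 3 mg/kg of sitagliptin by mouth per day. Sitagliptin inhibits DPP-4, the peptidase that degrades incretin hormones. The strain and sex are shared by all groups, and no age is given in the sources used here.

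Class I histocompatibility molecules are heavy chains that pair with beta-2 microglobulin at the cell surface. The class Ia chains, such as H2-K1 and H2-D1, vary widely between strains and present peptides to CD8 T cells. Class Ib chains vary less and often have narrower roles. H2-Q7 encodes Qa-2, which is attached to the membrane by a glycolipid anchor and is found on many blood cells. H2-M2 belongs to the M region at the far end of the same gene complex. Interferons raise class I transcription through a promoter block made of an NF-kappa-B enhancer, an interferon response element and the X and Y boxes, which NLRC5 and its partners occupy.

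The promoters of both genes are shown because the levels of the pair were ordered alike across arrays. That likeness (Pearson's r = 0.89) was not particular to the pair. H2-Q7 had 0.91 with Actb, and H2-M2 had 0.93 with Cpt1a and 0.91 with Olfr166, whose promoters are not shown. Shared control of the levels was not tested. Both are on chromosome 17 of GRCm38.p6, from the RefSeq promoter table, which held 1 window for each gene. The files name another build, mm9, so these positions are not positions of the probes. Each line gives the 190 bases before the gene start, 5′ to 3′. Capitals mark matches on either strand to 4 motifs, which were picked after the 2 sequences had been read. The motifs are GGGNNTTCC (kappa-B-like), TTTCNNTTC (interferon response element), TGATGAC (X box core) and CCAAT (Y box). The matches do not overlap each other.
H2-Q7, chr17:35438965-35439154, plus strand: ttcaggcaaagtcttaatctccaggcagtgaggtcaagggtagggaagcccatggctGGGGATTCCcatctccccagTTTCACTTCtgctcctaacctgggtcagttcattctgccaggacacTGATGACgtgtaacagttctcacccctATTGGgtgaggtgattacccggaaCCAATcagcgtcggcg
H2-M2, chr17:37483555-37483744, minus strand: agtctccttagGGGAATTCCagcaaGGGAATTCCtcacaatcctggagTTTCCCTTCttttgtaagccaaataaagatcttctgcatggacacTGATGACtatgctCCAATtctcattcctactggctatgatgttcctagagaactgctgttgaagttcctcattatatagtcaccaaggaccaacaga

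The windows held the kappa-B-like, interferon and X box matches in the same order. In H2-Q7 they began 133, 113 and 67 bases before the start. In H2-M2 the kappa-B-like letters occurred at 179 and at 165 bases, the interferon match at 142 and the X box core at 97 bases. H2-Q7 had a Y box match at 40 and another at 16 bases, and H2-M2 had 1 at 84 bases. The longest run shared by the windows was GGACACTGATGAC, 13 bases around the X box core. Of 32851 promoter windows in the table, 5 held this run, all of them class I genes: H2-D1, H2-M2, H2-Q4, H2-Q6 and H2-Q7. H2-Q7 and H2-M2 are among them by definition, since the run was taken from their windows.

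Shares of all promoter windows, which run from 250 bases before to 50 after the start, give the background. The kappa-B-like letters were in 5.82% of them, the interferon letters in 7.52%, the X box core in 3.23% and the Y box in 37.4%. Of the 17 class Ia and Ib genes of a fixed list with a window, 6 held the kappa-B-like letters, 8 the interferon letters, 7 the X box core and 14 the Y box. Each of these counts includes H2-Q7 and H2-M2, whose sequences had been read before the motifs were picked. H2-K1 and H2-D1, the classical genes, held the kappa-B-like, interferon and Y box letters. A match describes letters and says nothing of a factor bound there. The base composition differed, with 56% G and C and 12 CG steps in the H2-Q7 window against 45.3% and 2 in that of H2-M2.

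**Figure D1:**
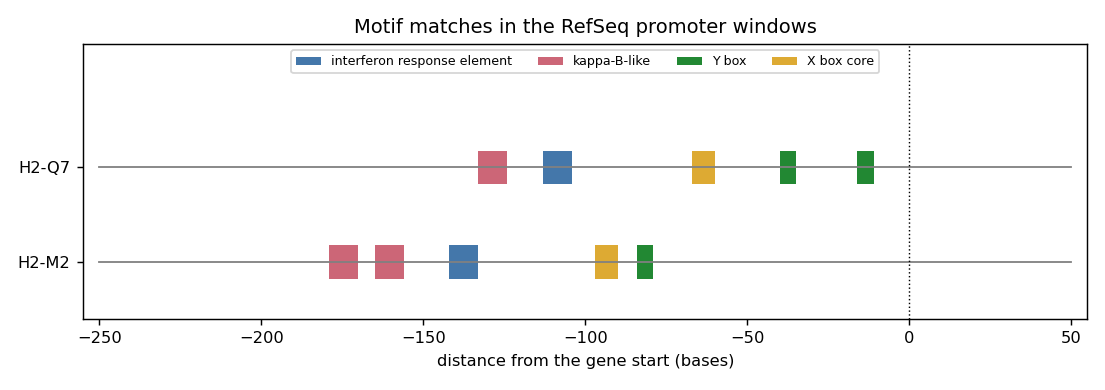
Matches to the 4 motifs in the promoter windows of H2-Q7 and H2-M2; the horizontal axis is the distance from the gene start in bases, boxes are matches on either strand, and the dotted line is the start. The order of kappa-B-like, interferon and X box matches is shared, and those of H2-M2 lie farther from the start.

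The genes differ in how far a probe can tell them from their relatives. The GENCODE transcript of the accession that the files pair with each probe was cut into all windows of 60 bases, the usual length of such probes. For H2-Q7, 498 of 1438 windows (34.6%) occurred without a mismatch in GENCODE transcripts of other genes, 18 in number. H2-Q5 shared 247 windows, H2-Q6 242 and the classical H2-D1 99. For H2-M2, 0 of 1239 windows occurred in another gene. The place of the probes within the transcripts was not worked out here. The classical H2-K1 shared 32. Readings of the H2-Q7 probe may thus hold RNA of H2-Q relatives or of other class I genes, the classical ones among them. No exact copy of an H2-M2 window was found elsewhere.

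The arrays differed in general brightness and in scan date. The median spot read 12.8 to 37.6 units, and 61.7% to 82.9% of spots were well above background. Of the 9 arrays 7 were scanned on 12 November, and vehicle 3 and DIO+sitagliptin 3 on 20 November. These 2 arrays were the dimmest by median spot, and no DIO array shares their date. The highest of 15 probes named NEGATIVE in the design, taken here as the background ceiling, read 24.6 to 48.6 units. The array files do not mark these 15 probes as control features. The labelled tissue could not be checked, since 0 of 5 smooth muscle and 0 of 6 endothelial markers had a named probe. In whole aorta fewer cells of a type and less RNA per cell cannot be told apart.

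H2-Q7 was brightest in 2 of the 3 vehicle aortas, followed by DIO 1. Vehicle mice 1, 2 and 3 read 175.6, 38.7 and 277.9 units. In DIO mice it was 108.2, 42.1 and 25.2 units. With sitagliptin it was 61.3, 24.5 and 59.6 units. The brightest pair were vehicle aortas, but vehicle 2 lay below DIO 1, DIO 2 and 2 of the treated aortas, so all 3 groups overlapped.

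The H2-M2 probe was also brightest in vehicle 3. Vehicle aortas read 149.2, 108.3 and 196.8 units, DIO aortas 173.6, 80.1 and 55.2 units, and treated aortas 69.9, 71.0 and 153.0 units. The highest reading was 3.57 times the lowest, and DIO 1 and DIO+sitagliptin 3 lay among the vehicle values.

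The 10 H2-Q7 spots of an array varied by 2.40% to 14.3% (coefficient of variation, median 10.8%) and those of H2-M2 by 5.48% to 8.83% (median 6.96%). On the log2 scale the median SD over spots was 0.15 for H2-Q7 and 0.10 for H2-M2. Spots of an array share 1 mouse and 1 labelling and are not replicates of a group.

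All 90 spots of each gene were marked well above background, but so were 22.2% to 71.1% of the NEGATIVE spots of an array. Against the stricter ceiling of the highest NEGATIVE probe, H2-M2 was brighter on 9 of 9 arrays with all 90 spots, by 1.44 to 5.10 times. H2-Q7 was brighter on 6 arrays, by up to 6.80 times, with 64 of 90 spots. It lay below the ceiling on vehicle 2 (0.961 times), DIO 3 (0.794 times) and DIO+sitagliptin 2 (0.658 times). On vehicle 2, 4 of its spots exceeded the ceiling, and 0 did on the other two. Each group thus held 1 aorta in which H2-Q7 was not separated from background by this ceiling, though all its spots carried the flag.

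**Figure D2:**
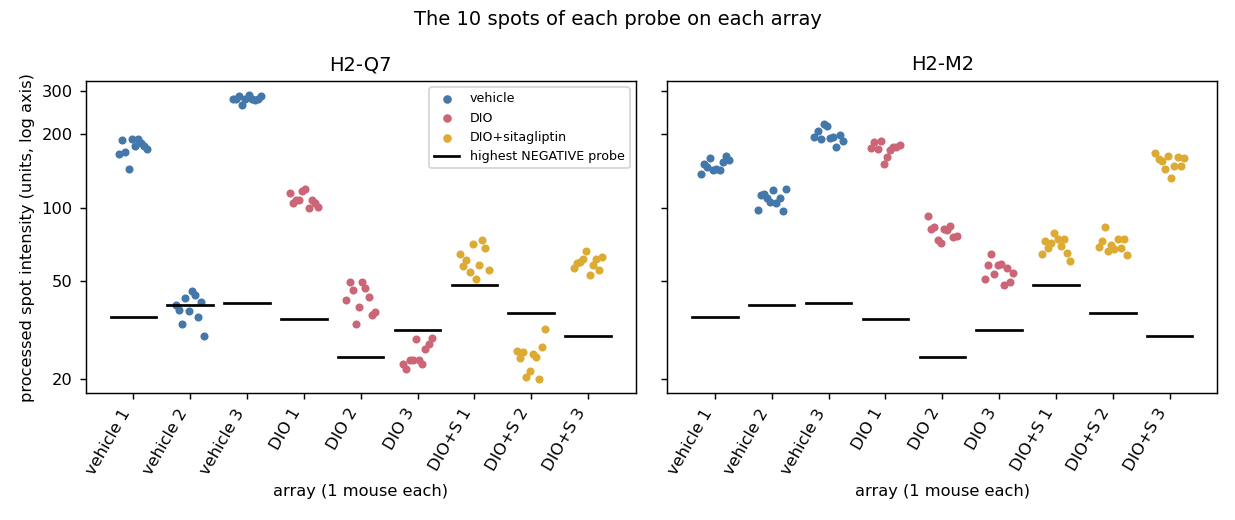
Processed intensity of each of the 10 spots of the H2-Q7 and H2-M2 probes (log axis, units) on the 9 arrays, coloured by group; black bars are the highest NEGATIVE probe of the array. The spots of an array lie close together, and H2-Q7 lies at or below the bar on vehicle 2, DIO 3 and DIO+sitagliptin 2.

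A rank within an array does not depend on the scale of that array. H2-Q7 was brighter than 85.1%, 55.9% and 88.9% of probes in the vehicle aortas. In DIO the shares were 78.0%, 68.7% and 49.2%, and with sitagliptin 68.4%, 43.2% and 74.6%. H2-M2 held a narrower band, from 78.3% to 86.7% in vehicle, 73.1% to 82.6% in DIO and 72.4% to 83.1% with sitagliptin. The mean rank of both genes followed the order vehicle, DIO, DIO+sitagliptin. For H2-Q7 the means were 76.6%, 65.3% and 62.1%, with SDs of 18.0, 14.7 and 16.6 points (n = 3 each). For H2-M2 they were 83.0%, 78.3% and 76.7%, with SDs of 4.25, 4.80 and 5.66 points. The steps between neighbours in this order were smaller than the SD within groups for H2-Q7 and for DIO against DIO+sitagliptin in H2-M2. The H2-M2 step from vehicle to DIO, 83.0% to 78.3%, was close to its SD.

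Intensities were then put on a log2 scale after adding 1 and quantile normalized, and differences below are on that scale, which understates changes of dim probes. Among vehicle aortas the normalized H2-Q7 level was 7.48, 4.90 and 8.28. Untreated DIO aortas had 6.43, 5.62 and 4.58, and treated ones 5.60, 4.30 and 6.08. The group means were 6.89 ± 1.77 (SD, n = 3), 5.54 ± 0.93 and 5.33 ± 0.92. H2-M2 stood at 7.26, 6.47 and 7.78 among vehicle aortas, at 7.05, 6.57 and 5.95 among DIO aortas, and at 5.89, 6.09 and 7.14 among treated ones. Its means were 7.17 ± 0.66, 6.52 ± 0.55 and 6.37 ± 0.67. Both genes were highest in vehicle 3 and next highest in vehicle 1. Vehicle means were highest for both genes, and DIO and DIO+sitagliptin means lay within 1 SD of each other.

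**Figure D3:**
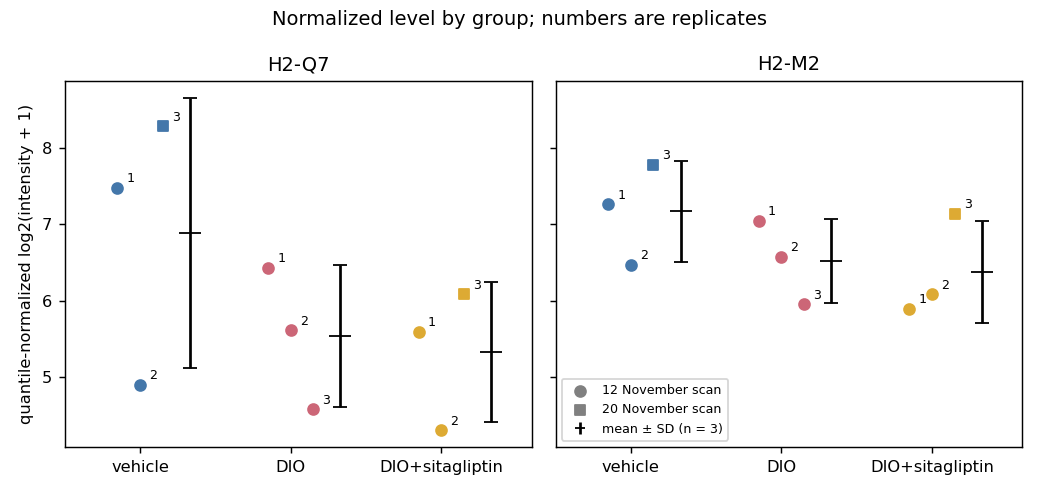
Quantile-normalized log2(intensity + 1) of H2-Q7 and H2-M2 in each aorta by group; numbers are replicates, squares are arrays scanned on 20 November, and bars are the mean ± SD of 3 arrays. The vehicle points of H2-Q7 run from 4.90 to 8.28 and overlap both other groups, whose lowest points (4.58 and 4.30) lie below them.

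The diet comparison sets untreated DIO aortas against vehicle aortas, whose label names no diet. H2-Q7 was lower in DIO than in vehicle by 1.34 in the group means, a limma coefficient of -1.34 ± 0.85 (SE, n = 3 per group). The coefficient of H2-M2 was -0.65 ± 0.52. The DIO value was the lower in 7 of the 9 vehicle-DIO array pairs for each gene, and the groups overlapped for both. Differences below that of H2-Q7 were found in 1.34% of the 49360 probes kept, and below that of H2-M2 in 11.8%, where the median probe differed by 0.055. These places describe values that entered the choice of the genes. No probe was called with limma at an adjusted p under 0.05 (0%), and 0.717% (354 probes) reached an unadjusted p under 0.05. Groups that did not overlap, with DIO lower, occurred for 3.26% of probes and for 0 of the 2 genes.

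Single arrays moved this comparison. The limma count at an unadjusted p under 0.05 was 2304 of 48562 probes without vehicle 2 and 1241 of 48637 without DIO+sitagliptin 3. It was 582 of 49289 without vehicle 1 and 86 of 48699 without vehicle 3. It was 97 of 48942 without DIO 3, 177 of 49263 without DIO 2 and 231 of 49050 without DIO+sitagliptin 2. A share of 0.05 is expected where no probe differs, and none of these counts reached it. H2-Q7 stood at -0.64 without vehicle 3, at -2.34 without vehicle 2 and at -0.87 without DIO 3. H2-M2 stood at -0.34, -0.99 and -0.36 in the same cases. With only the 7 arrays of 12 November the values were -0.62 ± 0.72 for H2-Q7 and -0.32 ± 0.38 for H2-M2. With scan date as a term they were -0.81 ± 0.73 and -0.30 ± 0.38. The arrays of 20 November hold no DIO aorta and give no value.

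The drug comparison sets treated against untreated DIO aortas and shares the DIO arrays with the diet comparison. The H2-Q7 coefficient was -0.21 ± 0.85 and that of H2-M2 -0.15 ± 0.52. Treated values were the lower in 6 of 9 array pairs for H2-Q7 and in 5 of 9 for H2-M2, and the groups overlapped. Both differences were a fraction of the SD within groups, which was 1.27 for H2-Q7 and 0.63 for H2-M2. Lower differences were seen in 33.4% and 39.6% of probes. Calls with limma at an adjusted p under 0.05 amounted to 0% here too, with 0.231% (114 probes) at an unadjusted p under 0.05 and 1.40% of probes lower without overlap.

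The limma count at an unadjusted p under 0.05 was 742 of 48220 probes without DIO+sitagliptin 1. It was 435 of 49050 without DIO+sitagliptin 2 and 362 of 48637 without DIO+sitagliptin 3. All 3 lay below the share of 0.05 expected where no probe differs. The direction of these drug differences turned with single arrays. For H2-Q7 it became 0.23 without DIO 1 and 0.30 without DIO+sitagliptin 2. For H2-M2 it became 0.11 without DIO 1, 0.091 without DIO+sitagliptin 1 and 0.070 with median scaling of the arrays, which gave -0.045 for H2-Q7. Without DIO 3 the values were -0.71 for H2-Q7 and -0.45 for H2-M2, and without DIO+sitagliptin 3 they were -0.57 and -0.51. Leaving out DIO+sitagliptin 1 gave -0.36 for H2-Q7, and leaving out DIO+sitagliptin 2 gave -0.0090 for H2-M2. Among the arrays of 12 November H2-Q7 had -0.53 ± 0.72 and H2-M2 -0.51 ± 0.38. With scan date as a term they had -0.75 ± 0.73 and -0.49 ± 0.38.

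The last comparison sets treated DIO aortas against vehicle aortas. The coefficients were -1.56 ± 0.85 for H2-Q7 and -0.80 ± 0.52 for H2-M2. Treated values were the lower in 7 of 9 array pairs for H2-Q7 and in 8 of 9 for H2-M2. The exception for H2-M2 was DIO+sitagliptin 3 at 7.14 above vehicle 2 at 6.47. For H2-Q7 vehicle 2 lay below DIO+sitagliptin 1 and 3. Differences below these were seen in 0.423% and 5.08% of probes. The calls with limma at an adjusted p under 0.05 were again 0%, beside 1.44% (713 probes) at an unadjusted p under 0.05 and 1.71% lower without overlap. The limma count at an unadjusted p under 0.05 was 5061 of 48637 probes without DIO+sitagliptin 3 and 2477 of 48562 without vehicle 2. It was 1104 of 48220 without DIO+sitagliptin 1, 442 of 49263 without DIO 2 and 421 of 49050 without DIO+sitagliptin 2. It was 395 of 48699 without vehicle 3 and 328 of 49289 without vehicle 1. With the replicate number as a block in the 6 arrays compared it was 3628 of 46595 probes, and adjusted calls remained 0. With scan date as a term the count was 3393 of 49360 probes. It was 2813 of 47946 with only the 7 arrays of the scan date that most arrays share. Adjusted calls were 0 with these scan-date settings too. Of these counts, those without DIO+sitagliptin 3, without vehicle 2 and with the block exceeded the share of 0.05 expected where no probe differs. The counts of both scan-date settings exceeded that share as well.

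Arrays of these groups with the same replicate number deviated together over all probes. Within the numbers 1, 2 and 3, H2-Q7 differed by -1.89, -0.59 and -2.20 and H2-M2 by -1.37, -0.38 and -0.64. The treated aorta was the lower in each of the 3 same-number pairs for both genes. Pair 3 is that of 20 November, and the others were scanned on 12 November. The numbers come from the sample titles and the mice are separate, so no vehicle mouse is known to be matched to a treated one. Over all 9 array pairs the treated aorta was the lower in 7 for H2-Q7 and in 8 for H2-M2. Without vehicle 3 the group difference was -0.85 for H2-Q7 and -0.49 for H2-M2, and without vehicle 2 it was -2.55 for H2-Q7. Among the arrays of 12 November it was -1.15 ± 0.79 and -0.83 ± 0.42. With scan date as a term it was -1.56 ± 0.69 for H2-Q7 and -0.80 ± 0.36 for H2-M2.

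**Figure D4:**
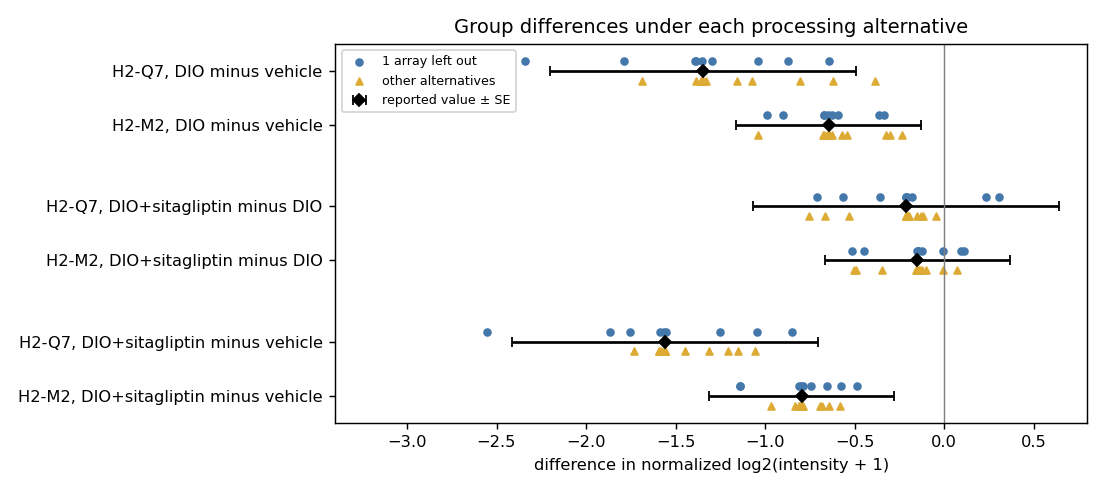
Group differences of H2-Q7 and H2-M2 in normalized log2(intensity + 1), with the reported limma coefficient ± SE (diamond), values with 1 array left out (circles) and other processing alternatives (triangles). Only for DIO+sitagliptin minus DIO do points lie on both sides of 0.

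A control measure of the arrays sorted them much as H2-Q7 did. The arrays carry control features for mouse GAPDH whose names end in 5 and in 3, and their log2 difference (5 minus 3) was taken from each array. Vehicle arrays had 1.49, 0.023 and 2.47, DIO arrays 1.61, -0.43 and -0.15, and treated arrays 1.19, -0.49 and 1.73. The 4 arrays from -0.49 to 0.023 had normalized H2-Q7 of 4.30 to 5.62, and the 5 arrays from 1.19 to 2.47 had 5.60 to 8.28. For H2-M2 the ranges were 5.95 to 6.57 and 5.89 to 7.78. The lower set held 1 vehicle, 2 DIO and 1 treated aorta.

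Within the higher set H2-Q7 was 7.48 and 8.28 in vehicle, 6.43 in DIO 1, and 5.60 and 6.08 with sitagliptin. Within the lower set it was 4.90 in vehicle 2, 5.62 and 4.58 in DIO, and 4.30 in DIO+sitagliptin 2. The vehicle aortas stood above the others in the higher set but not in the lower set. With the GAPDH difference as a covariate, a setting added after the values were seen, H2-Q7 had -0.39 ± 0.51 for DIO against vehicle. It had -0.67 ± 0.48 for the drug against DIO and -1.05 ± 0.48 for the drug against vehicle. The H2-M2 values were -0.23 ± 0.44, -0.35 ± 0.42 and -0.58 ± 0.42. The corresponding PGK1 features did not sort the arrays this way, with -1.39, -0.92 and -1.88 on vehicle arrays, -0.97, -2.18 and -0.074 on DIO arrays, and 0.96, -0.0025 and -4.77 on treated arrays. The part of the GAPDH measure in the group differences was not tested.

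**Figure D5:**
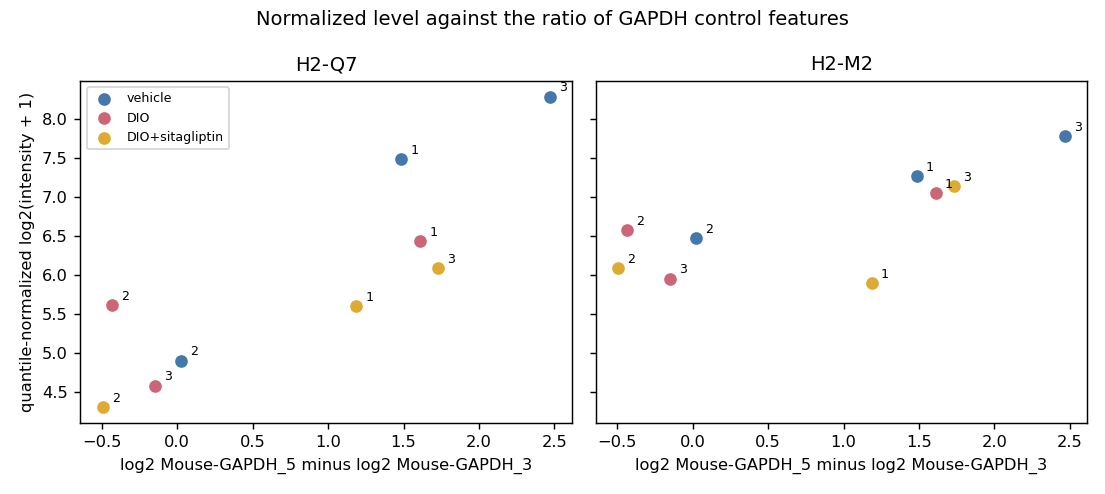
Normalized log2(intensity + 1) of H2-Q7 and H2-M2 against the log2 difference of the mouse GAPDH control features ending in 5 and 3, 1 point per array, coloured by group and numbered by replicate. The 4 arrays at the left have H2-Q7 levels of 4.30 to 5.62, and the 5 at the right 5.60 to 8.28.

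H2-Q7 varied more than most probes within groups. Its pooled SD within groups, 1.27, exceeded that of 91.8% of probes and ranked 3 among the 40 named genes kept, after Actb and Il2. The SD of H2-M2, 0.63, was close to the median probe at 0.63 and exceeded that of 49.4% of probes. The log2 difference of H2-Q7 and H2-M2 was also taken within each array. Without normalization vehicle arrays had 0.23, -1.46 and 0.50, DIO arrays -0.68, -0.91 and -1.10, and treated arrays -0.19, -1.50 and -1.35. Probes differ in brightness per molecule, so only its change between arrays can be read. Normalized, its group means were -0.28 ± 1.12 (SD, n = 3), -0.98 ± 0.38 and -1.05 ± 0.74. On vehicle 2, DIO 3 and DIO+sitagliptin 2 it includes an H2-Q7 reading below the NEGATIVE ceiling, so its exact size there is uncertain. The 3 group means differed by less than the SD of the vehicle group.

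Likeness to other named genes was measured as Pearson's r (with Spearman's rho) of normalized levels over the 9 arrays and is a description. The arrays share scan dates and the GAPDH split, so the points are not independent of these. H2-Q7 was most like Actb, the cytoskeletal beta-actin (r = 0.91, rho = 0.85), H2-M2 (r = 0.89, rho = 0.87) and Apoe, an apolipoprotein of remnant clearance (r = 0.87, rho = 0.78). Over the 39 other named genes its median r was 0.32. Among the 7 arrays of 12 November the values were 0.93 with Actb, 0.84 with H2-M2 and 0.99 with Apoe. Actb, like H2-Q7, was high in vehicle 1 and 3 and low in vehicle 2, at 11.19, 11.97 and 7.45. The gene least like H2-Q7 was the T-cell growth factor Il2 (r = -0.58, rho = -0.75).

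H2-M2 was most like Cpt1a, the mitochondrial entry enzyme for long-chain fatty acids (r = 0.93, rho = 0.93), the odorant receptor Olfr166 (r = 0.91, rho = 0.93) and H2-Q7. Its median r was 0.38. Cpt1a exceeded the NEGATIVE ceiling on 0 of 9 arrays, so this likeness rests on readings at background, while Olfr166 exceeded it on 9. The least like was Trp53rka (r = -0.77, rho = -0.83), which also exceeded the ceiling on 0 arrays. Among the arrays of 12 November r was 0.89 with Cpt1a, 0.94 with Olfr166 and -0.74 with Trp53rka. Actb and Apoe were less like H2-M2, at 0.70 and 0.63.

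Other genes of antigen presentation were looked up in fixed lists. Of 25 class Ib genes 2 had a named probe, the pair described here. None was found for the 4 class Ia and shared genes, the 14 genes of peptide loading, the 9 of class II presentation or the 15 of the interferon response (0 of each). The lists of T cells, NK cells and macrophages also had 0 named members. Il2 and Gsdmd, the pore-forming gasdermin D, stood in the list of 13 receptors and effectors, and Mzb1, a chaperone of plasma cells, in that of 7 B cell and plasma cell genes. None of these 3 was called with limma at an adjusted p under 0.05, as was the case for every one of the 49360 probes (0%).

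The likeness of Mzb1 and Gsdmd to the pair depended on whether the arrays of 20 November were included, while that of Il2 changed little. Over the 9 arrays r with H2-Q7 was -0.033 for Gsdmd and -0.37 for Mzb1, and with H2-M2 it was -0.29 and -0.44. Among the 7 arrays of 12 November r with H2-Q7 was 0.92 for Gsdmd and 0.53 for Mzb1, and with H2-M2 it was 0.63 and 0.53. Il2 had negative values in both cases, -0.58 and -0.58 with H2-Q7 and -0.74 and -0.77 with H2-M2. Il2 read 112.1, 158.9 and 14.3 units on vehicle arrays, 153.2, 88.6 and 119.3 on DIO arrays, and 146.1, 188.7 and 9.38 on treated arrays. It was thus lowest on both arrays of 20 November, where H2-M2 was among its brightest. Mzb1 was likewise lowest there, at 13.1 and 20.6 units, against 42.2 to 85.6 units on the other arrays. Gsdmd was lowest there too, at 9.71 and 4.20 units, against 31.4 to 57.5 units. For DIO against vehicle Il2 had 0.74 ± 0.90, Mzb1 0.47 ± 0.44 and Gsdmd 0.017 ± 0.54. For the drug against DIO they had -0.53 ± 0.90, -0.49 ± 0.44 and -0.59 ± 0.54, and for the drug against vehicle 0.22 ± 0.90, -0.024 ± 0.44 and -0.57 ± 0.54. All 3 genes lay below the NEGATIVE ceiling on both arrays of 20 November.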

How the data were processed

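Total RNA of 9 aortas was converted to Cy3-labelled cRNA and hybridized to 1 array per mouse, per the labels' protocols. The deposited spot intensity had its background subtracted and was spatially detrended; the file headers name Agilent Feature Extraction 11.0.1.1 and the mm9 build and record no normalization between arrays. The deposited flag of spots well above background served as the detection filter, although 22.2% to 71.1% of NEGATIVE spots also carry it.

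Intensities were log2-transformed after adding 1, averaged over the spots of a probe and quantile normalized. The filter asked that a share of 0.5 or more of a probe's spots pass in 3 or more arrays, and 49360 probes met it. Groups were fitted with limma 3.58.1 in R 4.3.3 over all 9 arrays, with an intensity trend, no covariate and Benjamini-Hochberg adjustment. The fitting code was checked on simulated data with independent noise and a shift larger than any difference of the members. That check does not show how the fit performs on differences of their size. Other steps used pandas 2.3.3 and numpy 2.4.6 under Python 3.11.15. Of 50 probes paired with an accession, 46 matched RefSeq and 3 GENCODE. The genes, lists and motifs were chosen with earlier results of these data known. Named genes are the 49 with a named probe, of which 40 passed the filter. Those described were the members, listed genes with a named probe and, per member, the 3 most and the 1 least alike by r. Replicates are separate mice, per the series' design text, and precision is limited by their number.

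Vehicle and DIO+sitagliptin arrays with the same number deviated together (correlations 0.67, 0.65 and 0.76 over probes), above the limit of 0.1 for pairing. DIO and vehicle arrays numbered 1 and 2 also passed this limit (0.34 and 0.11), as did DIO+sitagliptin and DIO arrays numbered 1 (0.17). With DIO at least 1 pair was negative. Correlations between arrays of unlike number were not computed, so nothing is known of them here. Deviations within a group cancel out, so the same-number correlations are not independent. Vehicle 3 and DIO+sitagliptin 3 also share the scan date of 20 November. The values therefore cannot show that mice were matched by number.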

Additional observations from a re-analysis of the deposited data

How the results depend on the processing

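The 6 group differences of H2-Q7 and H2-M2 were recomputed under 22 or 23 alternatives each. For DIO against vehicle and DIO+sitagliptin against vehicle, both genes kept a negative sign in all of them. Leaving out 1 array gave -2.34 to -0.64 for H2-Q7 and -0.99 to -0.34 for H2-M2 against DIO, and -2.55 to -0.85 and -1.14 to -0.49 against the treated group. For DIO+sitagliptin against DIO the sign turned in 2 alternatives for H2-Q7, with 1 array left out, and in 3 for H2-M2. Leave-one-out ranges were -0.71 to 0.30 and -0.51 to 0.11. Without normalization H2-M2 stood at -0.0053 here, and the cause was not tested. Median scaling gave -1.04 for H2-M2 in DIO against vehicle. The within-array difference of H2-Q7 and H2-M2 in DIO was -0.59 with the raw spot median, without background subtraction or normalization. With the processed intensity it was -0.90 without normalization and -0.98 with it. With the replicate number as a block, H2-Q7 in DIO+sitagliptin against vehicle was -1.56 ± 0.71 and H2-M2 -0.80 ± 0.50. In the 6 arrays compared the block gave -1.59 ± 0.39 and -0.81 ± 0.33, against -1.59 ± 0.94 and -0.81 ± 0.59 without it, and it changed no call. The replicate numbers are not known to match mice, so these smaller SEs are a description. Calls at an adjusted p under 0.05 were 0 in each alternative. The raw spot mean was not run. Intensities near the NEGATIVE probes limit H2-Q7.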
